A study of Homo sapiens with 2 samples.

Results

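Heat shock proteins and chaperones were followed in CHLA9 and TC71, established cell lines of Ewing sarcoma, a tumour of bone and soft tissue that is mostly driven by a fusion of EWSR1 with FLI1. Members were taken by gene symbol alone: the HSPA, HSPB, HSPD, HSPE, HSPH and HSP90 genes, the numbered DNAJA, DNAJB and DNAJC genes, and the subunits of the CCT complex with TCP1, without pseudogenes. The rule matched 83 rows of the deposited tables, and 1 row was left out because its identifier carries another symbol in GENCODE 44. This left 82 members among 33538 genes, all of them protein coding. The rule used no measured value, but it was set with earlier results of these data known.

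Both lines were grown as cultures and harvested with trypsin and EDTA at 70 to 80% confluence, with no drug or heat treatment in the labels. CHLA9 was kept in IMDM with 20% fetal bovine serum and an ITS supplement, and TC71 in RPMI-1640 with 10% serum. CHLA9 was sequenced on a further instrument in addition to that used for both lines, so line, medium and sequencing cannot be told apart. Each line has 1 library made with the 10x Genomics 3′ kit, in which every transcript is counted once by its unique molecular identifier (UMI), so levels do not scale with transcript length and can be compared between genes. Cells of 1 library are not replicates, and no test between the lines was made. Levels are UMIs per 1000000 (CPM) summed over the kept cells of a line, with exact 95% Poisson intervals that cover counting error only.

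Cells were kept at 5000 UMIs or more, 2000 genes or more and at most 15% mitochondrial UMIs. In CHLA9, 4524 of 5077 barcodes were kept, with a median of 34656 UMIs and 174975302 UMIs in all. In TC71, 1729 of 8468 barcodes were kept, with a median of 33370 UMIs and 58355173 UMIs in all, and 5869 of those left out held under 5000 UMIs. The libraries shared 16 barcodes, 3 of them among kept cells. All 6 markers of Ewing sarcoma on the list (CD99, NKX2-2, NR0B1, STEAP1, PAX7 and FLI1) were at 9.89 CPM or above in both lines. The 9 immune, epithelial and endothelial markers summed to 0.217, 0.0514 and 0.223 CPM in CHLA9 and to 0.120, 1.27 and 0.0685 CPM in TC71. CD3E, KRT5 and VWF were at 0 in both. The 4 fibroblast markers summed to 97.3 CPM in CHLA9 and 24.9 CPM in TC71, with COL1A1 at 56.0 and 10.2 CPM.

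Chaperones bind proteins that are unfolded or only partly folded and release them, mostly with the energy of ATP. HSP70 proteins take up short exposed stretches, J proteins (the DNAJ genes) bring them substrates and start ATP hydrolysis, and HSP90 acts later on kinases, receptors and other clients. The ring-shaped CCT complex folds actin and tubulin, HSPD1 and HSPE1 form the folding chamber of mitochondria, and HSPA5 and HSP90B1 work in the endoplasmic reticulum (ER). A subset, among them HSPA1A, HSPA6 and DNAJB1, is low in unstressed cells and is switched on by the heat shock factor HSF1, while stress in the ER switches on HSPA5 and HSP90B1 by a separate route.

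The starts of 4 members are shown because they hold matches to a stress element or a stretch shared with a neighbour, and because these genes come back in the co-variation over cells. Each run gives the 250 bases before the RefSeq start on GRCh38.p14, 5′ to 3′ on the strand of the gene. In HSPA8 (chr11:123062137-123062386, minus strand) capitals mark the 2 matches to the heat shock element searched, GAANNTTCNNGAA on either strand. In HSPA5 (chr9:125241344-125241593, minus strand) and HSP90B1 (chr12:103930160-103930409, plus strand) they mark matches to the ER stress element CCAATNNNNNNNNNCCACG on either strand. In HSPE1 (chr2:197500129-197500378, plus strand) they mark the 104 bases that the window of HSPD1, which lies head to head with it on the minus strand, also holds.
HSPA8: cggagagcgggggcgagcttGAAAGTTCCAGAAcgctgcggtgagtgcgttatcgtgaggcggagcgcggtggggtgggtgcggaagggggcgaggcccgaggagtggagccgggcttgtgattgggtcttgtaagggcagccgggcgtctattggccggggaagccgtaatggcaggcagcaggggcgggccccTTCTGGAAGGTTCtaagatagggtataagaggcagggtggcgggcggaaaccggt
HSPA5: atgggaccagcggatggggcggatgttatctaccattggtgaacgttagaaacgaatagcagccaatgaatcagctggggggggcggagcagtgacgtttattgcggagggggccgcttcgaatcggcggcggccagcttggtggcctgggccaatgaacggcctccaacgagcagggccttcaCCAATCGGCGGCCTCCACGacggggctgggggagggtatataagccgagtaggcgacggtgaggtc
HSP90B1: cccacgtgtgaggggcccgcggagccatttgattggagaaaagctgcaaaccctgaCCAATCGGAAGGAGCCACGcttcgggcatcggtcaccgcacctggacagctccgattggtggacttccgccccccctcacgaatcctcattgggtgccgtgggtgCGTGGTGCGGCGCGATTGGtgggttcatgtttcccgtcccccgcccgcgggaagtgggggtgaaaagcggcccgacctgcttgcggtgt
HSPE1: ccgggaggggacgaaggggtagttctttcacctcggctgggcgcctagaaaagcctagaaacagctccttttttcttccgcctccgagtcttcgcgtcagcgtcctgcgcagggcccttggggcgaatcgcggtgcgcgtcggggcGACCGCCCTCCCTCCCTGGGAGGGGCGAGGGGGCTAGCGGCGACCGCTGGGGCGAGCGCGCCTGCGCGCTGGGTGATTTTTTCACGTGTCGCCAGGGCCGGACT

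Of 17038 promoters searched in the same way, 0.364% held the heat shock element and 0.112% the ER stress element. Among the 74 members with a promoter in the table, the heat shock element was found in 3, HSPA6, DNAJB6 and HSPA8, and the ER stress element in 2, HSPA5 with 1 match and HSP90B1 with 2. The first bases of the HSPA8 matches lay 230 and 55 bases before the start, that of HSPA5 66 bases before it, and those of HSP90B1 194 and 89 bases before it. HSPA1A, DNAJB1, HSPH1, HSPD1, HSP90AA1 and HSP90AB1 held no match to these letters in this window. A match gives letters only and was not tested for binding.

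Chaperones took a larger share of the transcripts in TC71 than in CHLA9. The 82 members summed to 16192 CPM in CHLA9, which is 1.62% of all UMIs, and to 21967 CPM in TC71, or 2.20%, a fold of 1.36. Over single cells the share ran from 0.792% to 2.77% in CHLA9, with a median of 1.61% and quartiles at 1.44% and 1.81%. In TC71 it ran from 1.00% to 3.88%, with a median of 2.20% and quartiles at 1.99% and 2.40%. The interquartile ranges of the lines thus did not overlap, while their full ranges did.

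The difference was spread unevenly over the compartments. The HSP90 genes of the cytosol summed to 4854 CPM in CHLA9 and 7523 CPM in TC71, a fold of 1.55, and the mitochondrial members to 2406 and 4006 CPM, a fold of 1.67. CCT subunits summed to 4031 and 4866 CPM, HSP70 and HSP110 genes of the cytosol and nucleus to 1696 and 2177 CPM, and ER members to 912 and 1182 CPM, with folds of 1.21, 1.28 and 1.30. J proteins of the nucleus and the ribosome stood at 648 and 652 CPM. The group of small heat shock genes, taken by symbol, went the other way, with 453 CPM in CHLA9 and 285 CPM in TC71. Nearly all of this sum came from HSPB1, at 256 and 175 CPM, and HSPB11, at 195 and 109 CPM. HSPB11 is also named as a part of the transport machinery of cilia. For small heat shock proteins proper, the lower level in TC71 thus rests on HSPB1. HSP90 and CCT together held the larger part of the chaperone transcripts: HSP90 took 29.98% of them in CHLA9 and 34.2% in TC71, and CCT took 24.9% and 22.2%.

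Between the lines, 60 of the 82 members reached 10 CPM in at least 1 line and could be compared. At least 2-fold higher in TC71 were 9 of these 60, where 8.8% of all 9258 genes compared were, and at least 2-fold higher in CHLA9 were 3, where 16.3% of all genes were. Above CHLA9 by any amount were 37 members, beside 39.4% of all genes, and the median log2 difference (TC71 over CHLA9) was 0.28 for the members and -0.21 for all genes. The excess of 2-fold higher members in TC71 over the background depended on the floor. With a floor of 1 CPM in a line they were 10 of 70, beside 13.9% of all genes, and with 1 UMI they were 13 of 82, beside 20.1%. Scaling by the median of ratios moved every log2 difference by 0.15 toward TC71. It turned 6 small differences, those of CCT3, CCT7, HSPA9, HSPA14, DNAJC5 and DNAJC8, from CHLA9 to TC71.

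**Figure D1:**
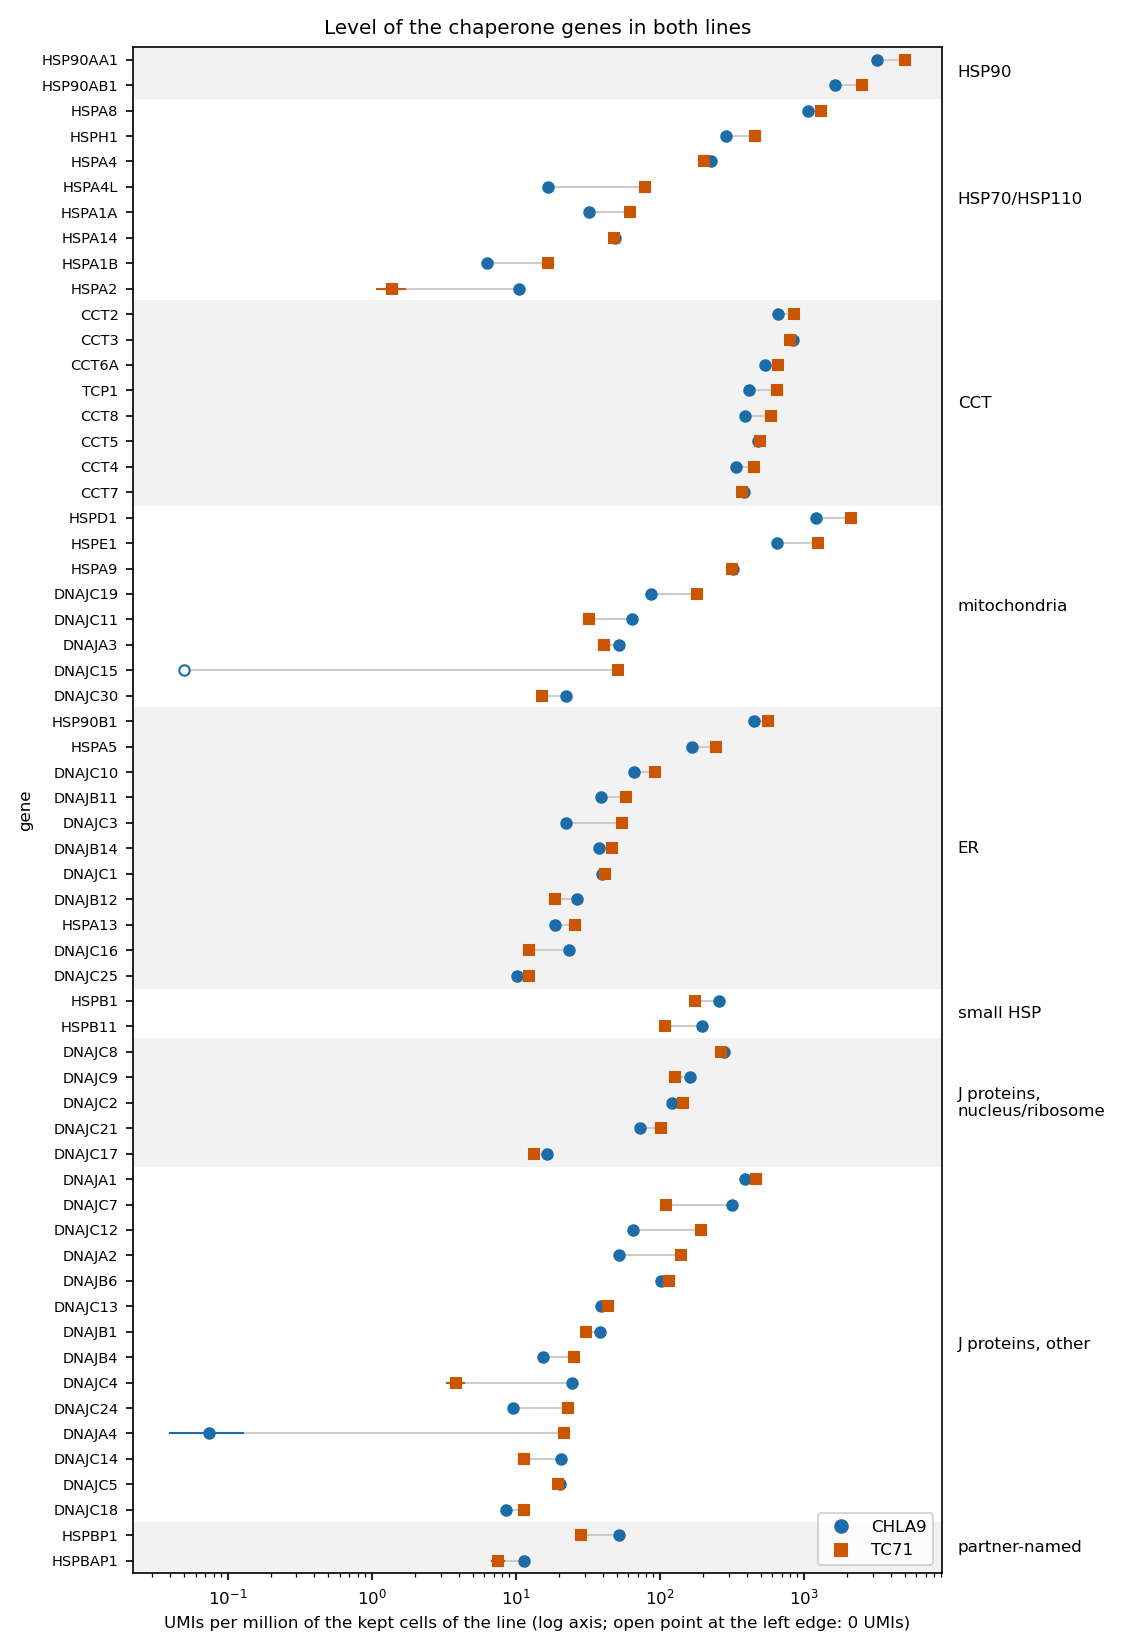
Level of the 60 chaperone genes that reached 10 CPM in a line, in UMIs per 1000000 on a log axis, with CHLA9 as circles and TC71 as squares. Bars give the 95% Poisson interval where it is wider than the symbol, and the open circle marks 0 UMIs of DNAJC15 in CHLA9. HSP90AA1 was highest in both lines at 3216 and 4998 CPM, and DNAJC15 and DNAJA4 lay farthest apart.

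HSP90AA1, the inducible form of cytosolic HSP90, was the highest member in both lines, at 3216 CPM (3208 to 3225) in CHLA9 and 4998 CPM (4980 to 5016) in TC71. HSP90AB1, the constitutive form, followed at 1638 CPM (1632 to 1644) and 2525 CPM (2512 to 2538). Both were higher in TC71 by nearly the same log2 difference, 0.64 and 0.62. Both have many processed pseudogenes, so reads shared with these copies are uncertain.

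HSPA8, the constitutive HSP70 of the cytosol, stood at 1065 CPM (1060 to 1070) in CHLA9 and 1310 CPM (1301 to 1320) in TC71. Its HSP110 partner HSPH1, a nucleotide exchange factor for HSP70, was at 289 and 457 CPM, and HSPA4, of the same family, at 227 and 202 CPM. HSPA4L, the third gene of that family, had the widest gap among them, with 16.8 CPM (16.2 to 17.5) in CHLA9 and 79.0 CPM (76.8 to 81.3) in TC71. HSPA2, an HSP70 best known from the testis, was lower in TC71, at 10.6 CPM (10.1 to 11.1) in CHLA9 and 1.37 CPM (1.09 to 1.71) in TC71.

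The heat-inducible HSP70 genes were low in both lines beside HSPA8. HSPA1A (ENSG00000204389, chr6:31815543-31817946 on GRCh38 by GENCODE 44) stood at 32.4 CPM (31.6 to 33.3) in CHLA9 and 61.7 CPM (59.7 to 63.8) in TC71. HSPA1B stood at 6.33 CPM (5.96 to 6.71) and 16.7 CPM (15.6 to 17.7), and was called higher in TC71. These neighbours code for the same protein in almost the same bases, so the split of reads between them is uncertain. HSPA6, a further inducible HSP70, had 0 UMIs in CHLA9 and 29 UMIs, 0.497 CPM, in TC71. At 10000 UMIs per cell, HSPA1A was seen in 22.5% of CHLA9 cells and 38.2% of TC71 cells, and at full depth in 52.7% and 68.4%. Each library held cells of 1 line, so no cell type lacking the gene was there to measure free RNA.

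DNAJB1, the inducible J protein that works with HSPA1A, did not share this direction, at 38.1 CPM (37.2 to 39.1) in CHLA9 and 30.5 CPM (29.1 to 32.0) in TC71. Of the 6 genes of the inducible list above 10 CPM (HSPA1A, HSPA1B, DNAJB1, HSPH1, HSPB1 and HSP90AA1), HSPA1B alone was 2-fold apart. HSF1, which switches these genes on, was at 63.8 CPM in CHLA9 and 29.0 CPM in TC71, a log2 difference of -1.14. HSF2 was at 29.6 and 25.6 CPM.

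The CCT complex varied little. Its 8 genes above the floor lay between 336 CPM (CCT4) and 838 CPM (CCT3) in CHLA9 and between 369 CPM (CCT7) and 855 CPM (CCT2) in TC71, and none was 2-fold apart. TCP1 showed the widest gap of the 8, at 416 and 649 CPM, and CCT8 followed at 391 and 591 CPM. CCT2 (658 and 855 CPM), CCT4 (336 and 449), CCT5 (478 and 492) and CCT6A (533 and 657) were also above CHLA9 in TC71. CCT3 (838 and 804 CPM) and CCT7 (381 and 369) were below it, a direction that turned under the scaling by the median of ratios. CCT6B, described as a testis form of CCT6A, had 0.732 and 0.548 CPM, and CCT8L2 had 1 UMI in CHLA9 and 0 in TC71.

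Among the mitochondrial members, HSPD1 and HSPE1 moved together. HSPD1 stood at 1205 CPM (1200 to 1210) in CHLA9 and 2114 CPM (2102 to 2126) in TC71, and HSPE1 at 655 CPM (651 to 659) and 1256 CPM (1247 to 1265). HSPE1 also has a readthrough transcript with a neighbouring gene, and the counts do not separate the part they share. HSPA9, the mitochondrial HSP70 that pulls proteins through the import channel, was nearly level at 321 and 316 CPM. DNAJC19, which sits at that channel, was at 86.5 CPM (85.1 to 87.9) in CHLA9 and 181 CPM (178 to 185) in TC71. DNAJC11, which helps to shape the inner membrane, was lower in TC71, at 64.3 and 32.2 CPM, and missed the 2-fold limit narrowly.

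DNAJC15 separated the lines completely. This relative of DNAJC19 (ENSG00000120675, chr13:43023203-43114213) had 0 UMIs in CHLA9 among 174975302 and 2979 UMIs in TC71, which is 51.0 CPM (49.2 to 52.9). A count of 0 allows up to 0.0171 CPM in CHLA9, taking 3 UMIs over the library as the floor, so against this floor the level was at least 2977-fold higher in TC71. The exact 95% interval of the log2 ratio, which is wider, began at 11.24. At full depth 64.3% of TC71 cells held a UMI of it and 0 of 4524 CHLA9 cells did, which allows a share of cells with a UMI of up to 0.0663% and says nothing of cells that express it below detection.

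DNAJA4, a J protein of the cytosol (ENSG00000140403, chr15:78264086-78282196), came close to the same pattern. It had 13 UMIs in CHLA9, 0.0743 CPM (0.0396 to 0.127), and 1256 UMIs in TC71, 21.5 CPM (20.3 to 22.7). At full depth it was seen in 0.287% of CHLA9 cells and 49.3% of TC71 cells.

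The remaining J proteins showed gaps in either direction. Higher in TC71 were DNAJC12, a cochaperone of the aromatic amino acid hydroxylases, at 65.3 and 192 CPM, and DNAJA2, a general HSP70 partner, at 51.9 and 140 CPM. DNAJC24, an enzyme of diphthamide synthesis on elongation factor 2, followed at 9.61 and 23.0 CPM. Higher in CHLA9 were DNAJC7, which holds both HSP70 and HSP90, at 315 CPM (313 to 318) and 110 CPM (107 to 113), and DNAJC4, at 24.7 CPM (23.9 to 25.4) and 3.84 CPM (3.35 to 4.38). DNAJA1, the most abundant of this group, was at 389 and 467 CPM, and DNAJB6 at 102 and 116 CPM.

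In the nucleus and on the ribosome no member was 2-fold apart. DNAJC8, of the spliceosome, was at 278 and 265 CPM, DNAJC9, a histone chaperone, at 161 and 127 CPM, and DNAJC2, on the ribosome, at 121 and 144 CPM. DNAJC21, which acts in ribosome assembly, was at 72.3 and 102 CPM. The group summed to nearly the same level in both lines, unlike the HSP90 and mitochondrial groups.

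In the ER, HSP90B1 stood at 453 CPM (450 to 456) in CHLA9 and 565 CPM (559 to 571) in TC71, and HSPA5, the HSP70 of this compartment, at 167 CPM (165 to 169) and 246 CPM (242 to 250). DNAJC3, which works with HSPA5 and also restrains the kinase PERK, was the ER member called, at 22.3 CPM (21.6 to 23.0) and 54.3 CPM (52.4 to 56.2). DNAJC10 and DNAJB11, J proteins of the ER lumen, were at 65.9 and 92.2 CPM and at 38.8 and 58.6 CPM.

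The small heat shock proteins, which hold unfolded proteins without ATP, were nearly silent apart from HSPB1, at 256 CPM (253 to 258) in CHLA9 and 175 CPM (172 to 178) in TC71. HSPB11 was the other above the floor, at 195 and 109 CPM, and GENCODE 44 names it IFT25, a part of the transport machinery of cilia. HSPB9, a testis gene, had 462 UMIs in CHLA9 (2.64 CPM) and 4 in TC71 (0.0685 CPM). The others on the list were at or below 0.754 CPM in both lines. HSPBP1 and HSPBAP1, named after partners of heat shock proteins, were at 52.3 and 28.2 CPM and at 11.3 and 7.51 CPM. Below 10 CPM in both lines were 22 members: 9 of the other J proteins, 6 small heat shock proteins, HSPA6, HSPA1L, HSPA12A, HSPA12B, CCT6B, CCT8L2 and DNAJB9. The highest of these was DNAJB9, a J protein of the ER, at 8.30 and 8.997 CPM. Among them DNAJC6, known as auxilin for stripping clathrin from vesicles in neurons, had 0.297 CPM (0.222 to 0.390) in CHLA9 and 3.102 CPM (2.67 to 3.59) in TC71. None of the 82 members was at 0 in both libraries.

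Other genes of the pathway, on 5 lists of 45 genes, were compared in the same way. The 43 above the floor had a median log2 difference of 0.07, beside -0.21 for all genes. Of these 43, 6 were at least 2-fold higher in TC71, beside 8.8% of all genes, and 1, HSF1, in CHLA9, beside 16.3%. Those in TC71 were AHSA1, which speeds up HSP90, at 42.2 and 98.9 CPM, FKBP5, a cochaperone of HSP90 on steroid receptors, at 11.3 and 50.2 CPM, and PFDN4, of the prefoldin complex that feeds CCT, at 66.1 and 181 CPM. The other 3 belong to the ER stress response: HERPUD1 at 9.18 and 36.3 CPM, XBP1 at 26.7 and 61.7 CPM, and DDIT3 at 7.39 and 16.0 CPM. The 12 partners of HSP70 showed none 2-fold apart, and summed to 998 CPM in CHLA9 and 1003 CPM in TC71. The list of 13 genes of ER folding had a median log2 difference of -0.03 and summed to 2064 and 1847 CPM, beside the higher sum of the ER members in TC71.

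The cell cycle was read from Seurat phase scores. CHLA9 held 1015 G1, 1743 S and 1766 G2M cells (22.4%, 38.5% and 39.0%), and TC71 held 226, 834 and 669 (13.1%, 48.2% and 38.7%). A gene counted as different between phases where its highest phase exceeded its lowest by at least 25% and their intervals did not touch. This held for 19 of 55 members in CHLA9, where it held for 32.1% of all genes, and for 9 of 57 in TC71, where it held for 27%. Called and highest in G2M were 10 of the 55 members in CHLA9 and 7 of the 57 in TC71. The shares of all genes tested were 14.3% and 20.2%. Called and highest in S were 5 and 2 of these members, beside 10.9% and 4.59% of all genes tested. In G1 they were 4 and 0, beside 6.89% and 2.24%. With all cells thinned to the same 10000 UMIs the calls were 18 in CHLA9, 17 of them shared, beside 34.1% of all genes, and 9 in TC71, 6 of them shared, beside 17.5%. With at most 10% mitochondrial UMIs, 14 members were called in TC71, beside 28.4% of all genes. The members were thus near the background in CHLA9, and in TC71 they were below it or near it depending on the setting. Median UMIs per cell were 29196 in G1, 35064 in S and 40896 in G2M of CHLA9 and 29048, 33034 and 37014 in TC71.

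HSPA1A had the widest swing. In CHLA9 it was at 11.7 CPM (10.6 to 13.0) in G1, 26.4 CPM (25.1 to 27.6) in S and 46.2 CPM (44.7 to 47.7) in G2M. In TC71 it was at 42.4 CPM (37.5 to 47.8) in G1, 34.9 CPM (32.7 to 37.2) in S and 96.7 CPM (92.8 to 101) in G2M. The G2M cells were thus the highest in both lines, and G1 stood below S in CHLA9. In TC71 G1 was above S, but the levels were 34.9 and 34.7 CPM when phases were scored from all genes. HSPA1B was also highest in G2M, with G1 and S of TC71 not apart, at 3.03, 5.87 and 8.09 CPM in CHLA9 and 11.4, 11.02 and 24.3 CPM in TC71.

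DNAJB1 and HSPA8 were also highest in G2M of both lines. DNAJB1 stood at 24.1, 36.1 and 45.7 CPM in G1, S and G2M of CHLA9 and at 20.2, 25.8 and 38.5 CPM in TC71, a log2 difference of G2M over G1 of 0.92 and 0.93. HSPA8 stood at 730, 1131 and 1147 CPM in CHLA9, where S and G2M were nearly level, and at 1128, 1195 and 1486 CPM in TC71, where G1 and S were. HSPA13, an HSP70 of microsomes, was called in both lines as well, at 16.7, 17.0 and 21.3 CPM and at 19.1, 23.5 and 29.5 CPM. DNAJA1 followed the same order at 314, 377 and 431 CPM in CHLA9 and 415, 446 and 503 CPM in TC71, where it missed the 25% limit. HSPA4L and HSPA2 were highest in G2M as well, and called in CHLA9, at 10.5, 13.1 and 22.7 CPM and at 6.003, 10.3 and 12.7 CPM there.

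DNAJC9, the histone chaperone, peaked in S, at 116, 210 and 137 CPM in CHLA9 and 125, 144 and 107 CPM in TC71. HSP90AA1 was lowest in S of CHLA9, at 3721, 2780 and 3380 CPM, and nearly flat in TC71, at 4825, 5198 and 4820 CPM. HSP90B1 had its lowest level in S of CHLA9 too, at 552, 372 and 481 CPM, beside 499, 585 and 561 CPM in TC71. DNAJC16, a J protein of the ER, was called in both lines with opposite orders, at 28.9, 22.8 and 21.5 CPM in G1, S and G2M of CHLA9 and 9.39, 11.3 and 14.4 CPM in TC71, where the call was lost with the updated phase lists. HSPA13 lost its call in CHLA9 under both other scorings. The log2 ratio of G2M over G1 had opposite signs in the lines, with intervals that left out 0, in 5 of the 52 members tested in both, beside 4.82% of all genes. Of the 6 members called in both lines, 3 had the same highest and lowest phase in each, DNAJB1, HSPA8 and HSPA13. A further 16 were called in 1 line, and whether the lines differ in this was not tested. For the counts of calls in both lines and in 1 line, the share of all genes was not computed.

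**Figure D2:**
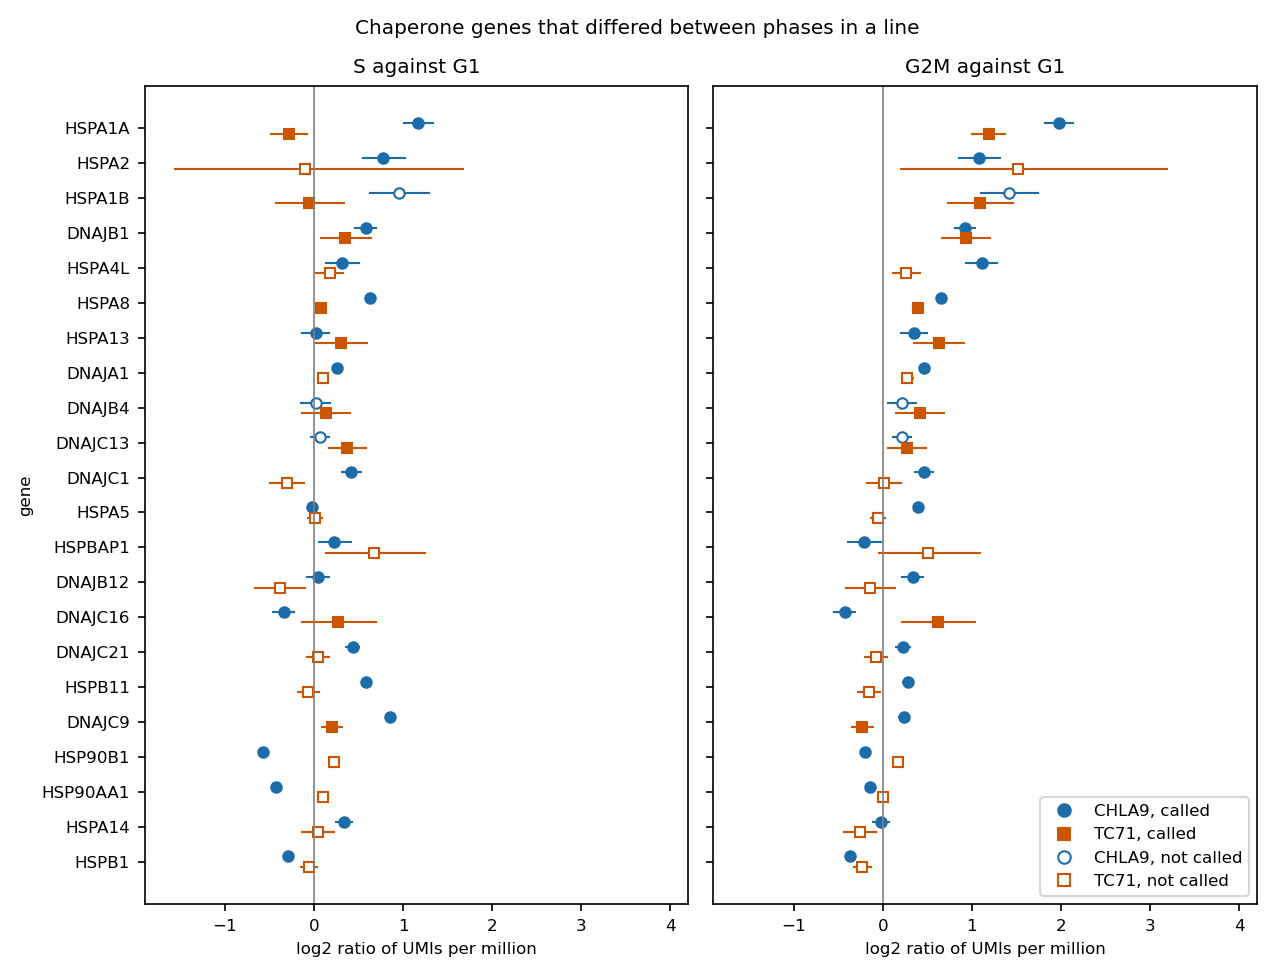
Log2 ratio of UMIs per 1000000, S over G1 on the left and G2M over G1 on the right, for the 22 chaperone genes that differed between phases in at least 1 line, with 95% intervals of counting error. Circles are CHLA9, squares TC71, and filled symbols mark the line in which the gene was called. HSPA1A, HSPA1B and DNAJB1 lie right of 0 in G2M in both lines, with HSPA1A at 1.98 and 1.19.

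As groups, the phases differed by less. HSP70 and HSP110 genes summed to 1365, 1729 and 1805 CPM in G1, S and G2M of CHLA9 and to 1930, 2045 and 2388 CPM in TC71, so G2M was highest in both. HSP90 genes summed to 5651, 4384 and 4926 CPM in CHLA9 and to 7301, 7860 and 7205 CPM in TC71, where S was lowest in CHLA9 and highest in TC71. The sum over all members was 17159, 15599 and 16298 CPM in CHLA9 and 21282, 22577 and 21463 CPM in TC71.

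Co-variation over cells was weak for most members and clear for a few pairs. Spearman's rho was taken over 4510 cells of CHLA9 and 1670 of TC71 after drawing 10000 UMIs from each, among members with at least 50 CPM, as a description. The points share the library, the depth and the cell cycle. In CHLA9 the 561 pairs of 34 members had a median rho of 0.0177, and in TC71 the 630 pairs of 36 members had one of 0.0246. A rho of 0.1 or more was reached by 62 pairs in CHLA9, 11.1% of them, where 0.447% of all gene pairs reached it, and by 56 pairs in TC71, 8.89%, where 0.855% of all gene pairs did. Of the 465 pairs of the 31 members above 50 CPM in both lines, 31 pairs reached 0.1 in both, where 0.251% of all gene pairs did, and none fell to -0.1 in both. Members and all genes share the floor of 50 CPM but were not matched on level. With a floor of 100 CPM the median rho of the members was 0.0383 in CHLA9 and 0.0320 in TC71. The part of level in the gap to all gene pairs was not tested.

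The pairs with the highest mean rho over the lines joined HSP90 to its own paralog and to the mitochondrial chamber. For HSP90AA1 with HSP90AB1, rho reached 0.363 in CHLA9 and 0.253 in TC71. HSPE1 with HSP90AA1 had 0.281 and 0.244, HSPD1 with HSP90AB1 0.292 and 0.186, and HSPD1 with HSP90AA1 0.271 and 0.199. HSPA5 with HSP90B1, the ER pair whose starts both hold the ER stress element, had 0.290 and 0.200, the third highest mean. Next came DNAJA1 with HSPA8, at 0.269 and 0.196. HSPD1 with HSPE1, the partners of 1 folding chamber that share a start region, had 0.164 and 0.184. The starts searched for HSP90AA1, HSP90AB1 and HSPD1, which are in most of the pairs above, held no match to either stress element, and other starts of these genes were not searched. Whether a shared element or start goes with rho was not tested.

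These pairs kept a positive rho inside each phase. Within G1, S and G2M cells taken apart, HSP90AA1 with HSP90AB1 reached 0.352, 0.322 and 0.3502 in CHLA9 and 0.154, 0.225 and 0.293 in TC71. DNAJA1 with HSPA8 had 0.192, 0.295 and 0.189 in CHLA9 and 0.257, 0.144 and 0.169 in TC71. HSPA5 with HSP90B1 had its highest rho in G2M of both lines, at 0.149, 0.238 and 0.418 in CHLA9 and 0.160, 0.167 and 0.258 in TC71. The G1 values of TC71 rest on 206 cells.

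HSPA8 and HSP90 did not go together in CHLA9. The rho of HSPA8 with HSP90AB1 was -0.103 in CHLA9 and 0.00259 in TC71. With HSP90AA1 it was -0.104 in CHLA9 but 0.119 in TC71, past the limit of 0.1. In CHLA9 HSPA8 had a rho of 0.271 with the total UMIs of the cell, the highest of any member there, while HSP90AB1 had -0.184 and HSP90AA1 -0.164, and the part of cell size in these values was not tested. DNAJC9 with HSP90AA1 had the lowest mean rho of all 465 pairs, at -0.141 and -0.0101. The subunits of CCT, which form 1 complex, had a median rho of 0.0650 in CHLA9 and 0.0409 in TC71 over their 28 pairs. This was above the median of all member pairs, 0.0177 and 0.0246, and of all gene pairs, 0.000907 and 0.00139, which were not matched to CCT on level. None of the 28 pairs reached 0.1 in both lines.

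**Figure D3:**
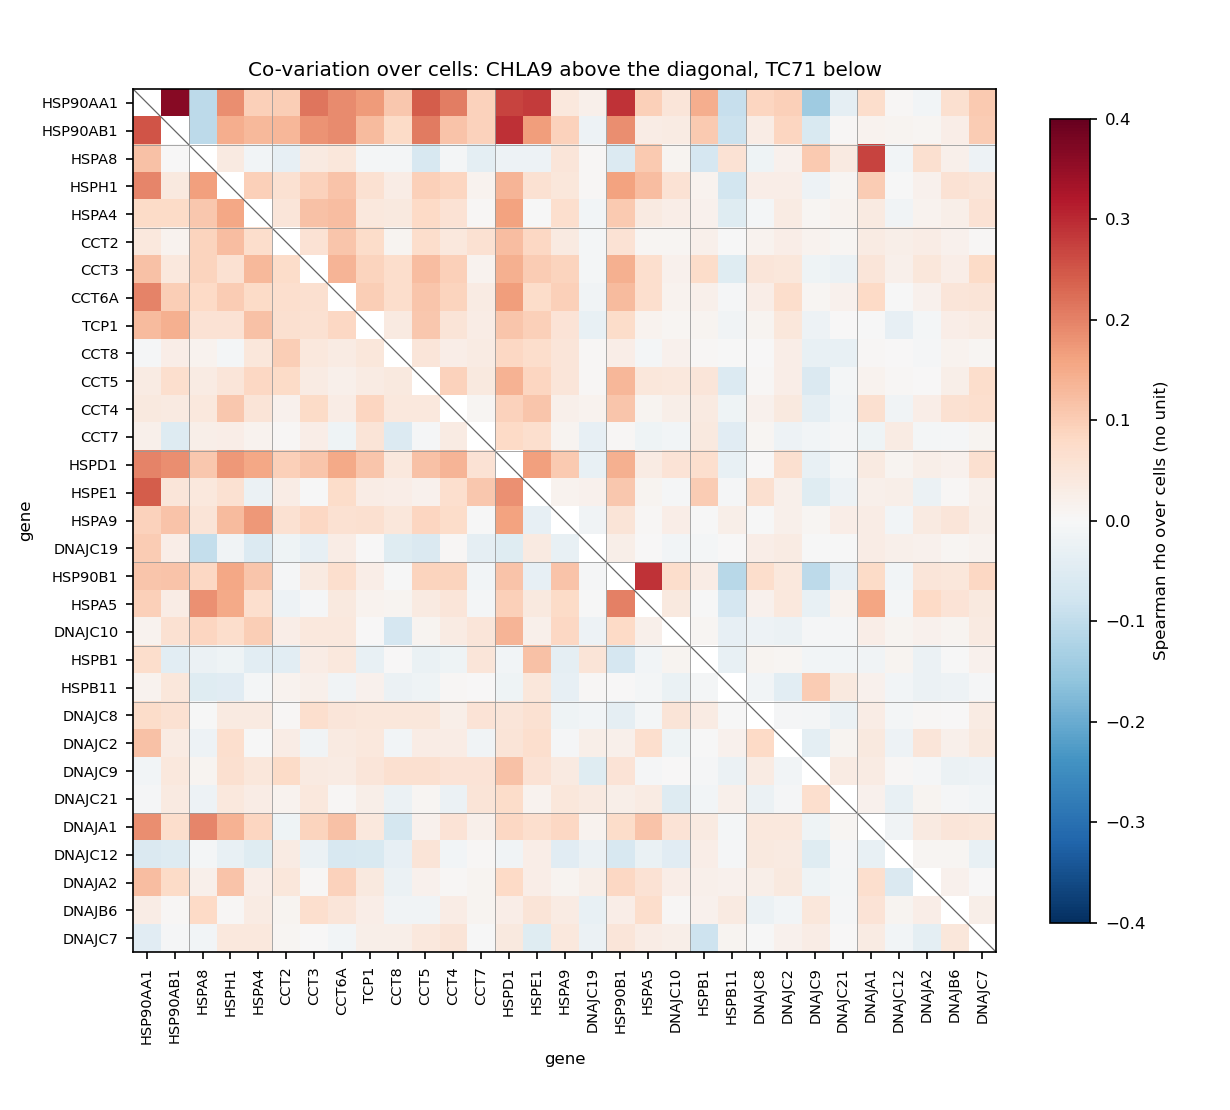
Spearman's rho over cells for each pair of the 31 chaperone genes above 50 CPM in both lines, with CHLA9 above the diagonal and TC71 below it, genes ordered by group and grey lines between groups. Red is a positive and blue a negative rho. HSP90AA1 with HSP90AB1 is the strongest pair on both sides of the diagonal, at 0.363 and 0.253, and HSPA5 with HSP90B1 stands out among the ER genes.

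Among all 2680 other genes above 50 CPM in both lines, the partners with the highest mean rho were named after their values were seen. For HSPA5 they were HSP90B1, CALR (0.272 and 0.177) and MANF (0.201 and 0.124), all of the ER. Next, with mean rho from 0.151 to 0.135, came SFPQ, CCNB1, DDX5, HSPA8, CDC20, HSPH1 and DNAJA1, none of them on the ER lists used here. For HSPD1 the first was NCL, the nucleolar protein nucleolin, at 0.272 and 0.341, above any chaperone. For HSPA8 they were DNAJA1, MALAT1 (0.312 and 0.128) and CKS2 (0.182 and 0.230), and for HSP90AA1 they were HSP90AB1, DYNLL1 (0.378 and 0.209) and HMGB1 (0.307 and 0.236).

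Bursts in few cells were rare. A high cell of a gene was defined by at least 5 UMIs of it and at least 5 times its mean among 10000 drawn UMIs, and a gene was called where 1% of cells were high. In CHLA9 1 of 55 members was called, HSPA5, where 0.824% of all genes were, and in TC71 0 of 57 members, where 0.454% of all genes were. Any high cell at all was found for 16 members in each line, and the share of all genes with any was not computed. The median ratio of variance to mean was 1.10 for the members in both lines, beside 1.04 and 1.05 for all genes.

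HSPA5-high cells numbered 57 of 4510 in CHLA9, a share of 1.26% (95% Clopper-Pearson interval 0.959 to 1.63). They held 9 to 26 UMIs of HSPA5 with a median of 10, and 25 cells lay just below the limit with 8 UMIs, so the class is a range and not a type. In TC71, where the mean was higher and the limit was 13 UMIs, 2 of 1670 cells passed, with 15 and 33 UMIs. Of the 57 cells, 6 were in G1, 18 in S and 33 in G2M, so that 57.9% were in G2M, beside 38.8% of the other cells. Their median of 33384 UMIs and 6.90% mitochondrial UMIs lay close to the 34710 and 7.59% of the others.

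The HSPA5-high cells of CHLA9 carried more of some other chaperones, in the ER and outside it. Of the other 10 ER members above the floor, 7 were higher and 3 lower than in the other cells, and intervals were apart for 3, all higher: DNAJB11, HSP90B1 and DNAJC3 (38.6 beside 22.5 CPM). The 3 lower ones were DNAJB12 (15.8 beside 25.6 CPM), DNAJB14 (26.3 beside 37.3) and DNAJC16 (19.3 beside 22.9). Outside the ER, intervals were also apart, with the HSPA5-high cells higher, for HSPA8 (1288 beside 1013 CPM), HSPH1 (381 beside 294) and DNAJA1 (496 beside 384). The same held for HSP90AA1, HSP90AB1 and CCT3. The share of all genes with intervals apart was not computed. Of the other 54 members above the floor, 2 were at least 2-fold higher in the HSPA5-high cells, where 0.348% of all genes were, and none was 2-fold lower, where 2% were. The 2 were DNAJB11, at 89.5 CPM (66.6 to 118) beside 37.2 CPM (35.4 to 39.0), and HSP90B1, at 946 CPM (867 to 1029) beside 461 CPM (455 to 467). Of the 13 ER folding genes, 12 were above the other cells and 3 were 2-fold higher, XBP1 at 61.4 beside 25.1 CPM, MANF at 226 beside 96.1 CPM and DDIT3 at 14.0 CPM (6.06 to 27.6) beside 6.76 CPM, whose intervals touch. HSPA1A was at 29.8 CPM (17.4 to 47.8) beside 28.9 CPM (27.3 to 30.5). This rests on 17 UMIs, with a log2 difference of 0.05 (-0.74 to 0.73). HSPA1B, whose reads are not surely split from those of HSPA1A, was at 14.0 CPM (6.06 to 27.7) beside 6.04 CPM (5.34 to 6.81). It rests on 8 UMIs, and its intervals touch.

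HSPA1A-high cells were few. They numbered 3 of 4510 in CHLA9, 0.0665% (0.0137 to 0.194), and 10 of 1670 in TC71, 0.599% (0.288 to 1.10). All 13 were in G2M. They held 5 or 6 UMIs of HSPA1A, just past the limit of 5, and another draw of UMIs gave 0.240% in TC71, so the share rests on a handful of cells near the limit. The mean of HSPA1A was 0.289 UMIs in CHLA9 and 0.566 in TC71, so the minimum of 5 UMIs set the limit in both. In multiples of the mean this limit was stricter than that of HSPA5, and stricter in CHLA9 than in TC71. The shares of the genes and lines thus do not rest on a like limit. At full depth the highest cell of each line held 18 UMIs of HSPA1A.

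**Figure D4:**
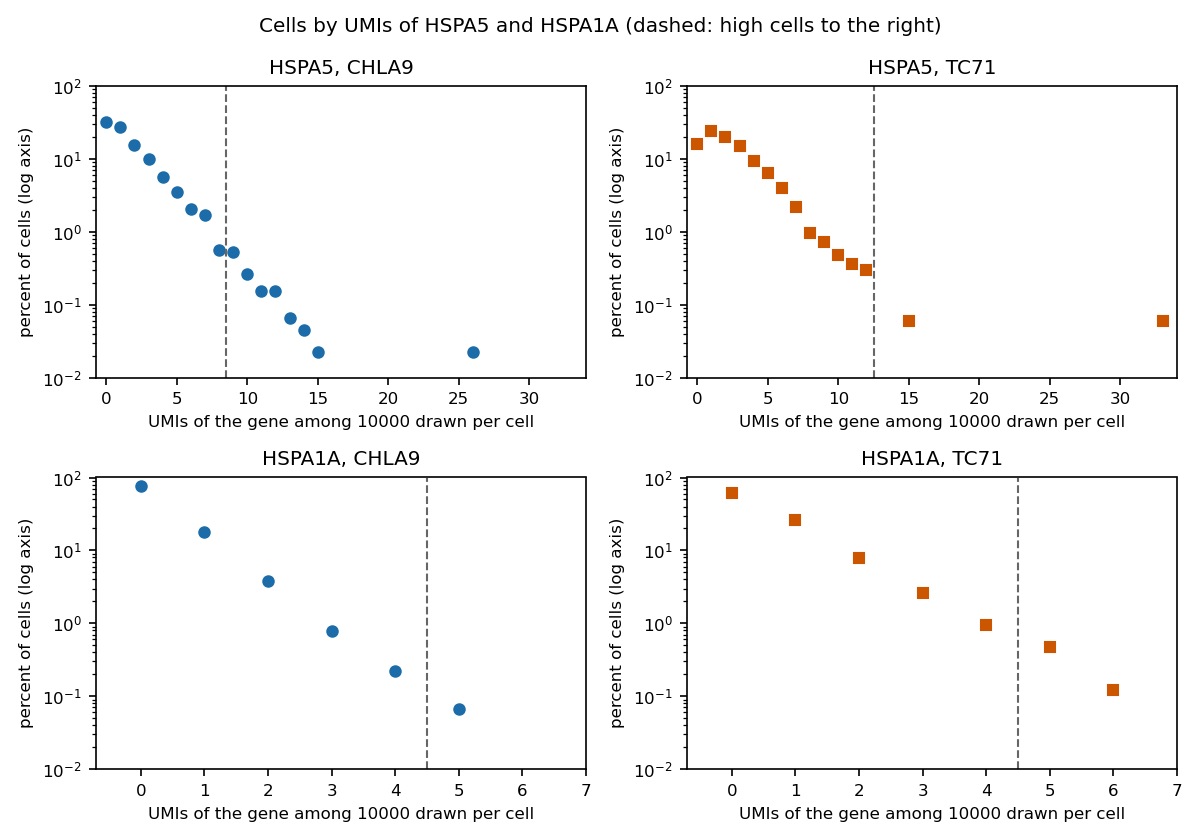
Percent of cells, on a log axis, by the number of UMIs of HSPA5 (top) and HSPA1A (bottom) among 10000 UMIs drawn from each cell of CHLA9 (left) and TC71 (right). The dashed line marks the limit of a high cell, with 57 and 2 cells to its right for HSPA5 and 3 and 10 for HSPA1A. The points fall smoothly across each limit, apart from single cells with 26 and 33 UMIs of HSPA5.

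The barcodes left out by the filters were read as well, as values outside the comparisons. In TC71, 601 barcodes passed on UMIs and genes but held over 15% mitochondrial UMIs, with a median of 9230 UMIs. All 12 ER members above the floor were higher in them than in the kept cells and 7 of the 12 were at least 2-fold higher, where 10.5% of all genes were. No member outside the ER was 2-fold higher. HSPA5 stood at 734 CPM (713 to 755) beside 246 CPM in kept cells, and HSP90B1 at 1684 CPM (1652 to 1716) beside 565 CPM. Of the 13 other ER folding genes, 6 were 2-fold higher as well. In the other direction 12 members were at least 2-fold lower, where 16.2% of all genes were, among them HSPE1 at 610 beside 1256 CPM and HSPB1 at 68.5 beside 175 CPM.

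CHLA9 did not show the same. In its 181 barcodes over 15% mitochondrial UMIs, 0 of 56 members were 2-fold higher, where 4.77% of all genes were, and 10 were 2-fold lower, where 15% were. HSPA5 was at 237 CPM beside 167 CPM in kept cells. Whether the lines differ in this was not tested. Mitochondrial UMIs took 33.3% of these barcodes in CHLA9 and 36.4% in TC71, and leaving mitochondrial genes out of the totals adds 0.47 and 0.51 to every log2 difference. Among the 5869 TC71 barcodes under 5000 UMIs, 0 of 57 members were 2-fold higher and 0 were 2-fold lower than in kept cells, beside 0.182% and 0.206% of all genes, and the members summed to 21392 CPM. Among the 277 such barcodes of CHLA9, 0 of 56 members were 2-fold higher, beside 2.28% of all genes, and 36 were 2-fold lower, beside 50.7%.

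**Figure D5:**
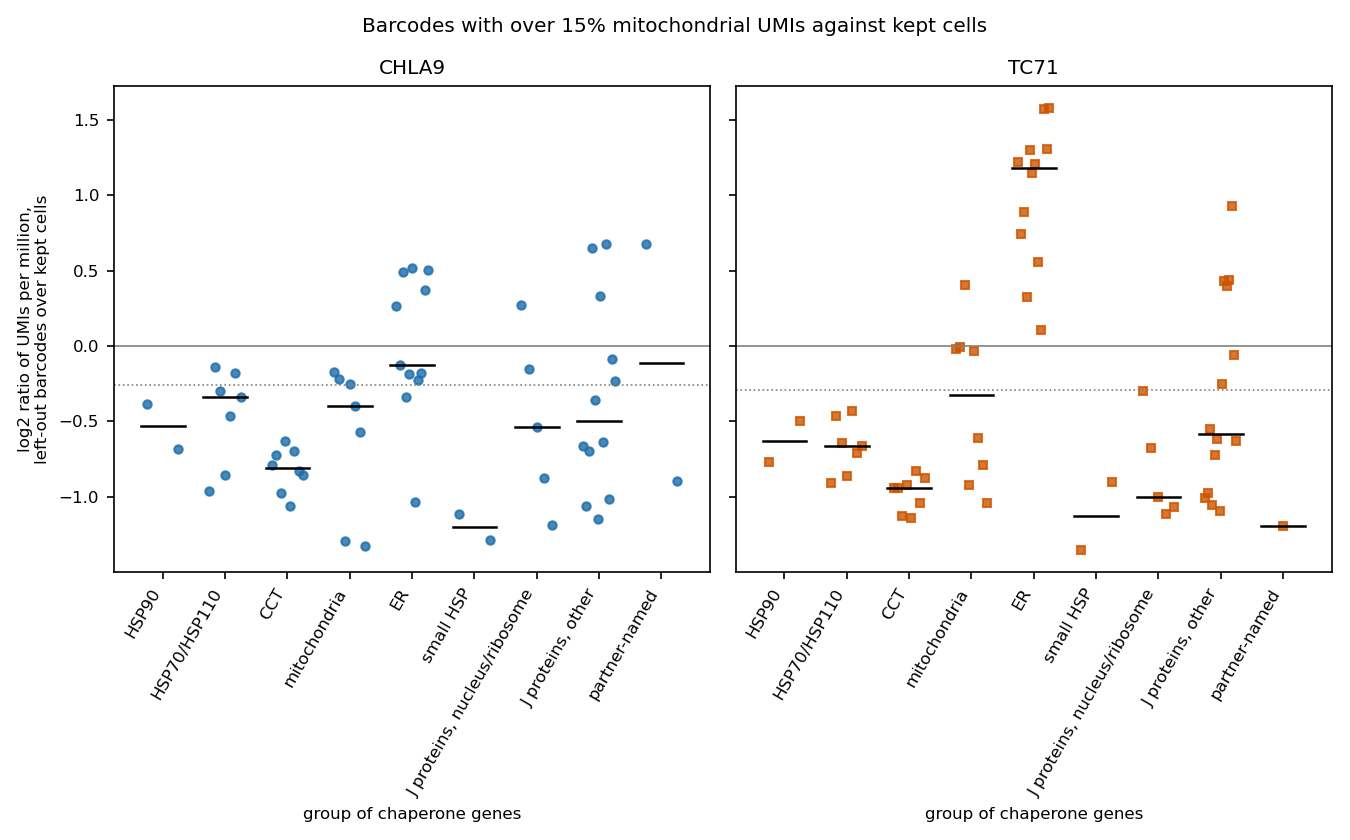
Log2 ratio of UMIs per 1000000 in barcodes with over 15% mitochondrial UMIs over kept cells, by group of chaperone genes, in CHLA9 (left, circles) and TC71 (right, squares). Each symbol is a gene, black bars are medians of a group, and the dotted line is the median of all genes, -0.26 and -0.29. All ER genes of TC71 lie above 0, with a median of 1.18, beside -0.13 in CHLA9.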

How the data were processed

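Members and lists were chosen with earlier results of these data known. Per the labels, the authors ran Cell Ranger 3.1.0 on hg38, and the deposited tables hold UMI counts per gene and barcode of 1 CHLA9 and 1 TC71 library, not normalized. Barcodes with 5000 UMIs or more, 2000 genes or more and at most 15% mitochondrial UMIs were kept, without removing doublets. Counts were summed per line and given as CPM. Intervals are exact (Poisson for levels, conditional binomial for ratios, Clopper-Pearson for shares, all 95%) and cover counting error only. With 1 library a line no test was made: a gene was called apart between lines at 2-fold, with at least 10 CPM in a line. Phases came from CellCycleScoring of Seurat 5.3.0 (R 4.3.3) on genes seen in 10 cells or more. For rho and high cells, each cell was thinned to 10000 UMIs with numpy 2.4.6, leaving out 14 shallower cells of CHLA9 and 59 of TC71. Named genes are members at 100 CPM or more in a line, 2-fold apart, called between phases in both lines or with high cells, the inducible list, HSF1, pathway genes 2-fold apart and the 5 pairs with the highest mean rho; others were named after their values were seen. Scripts were tested on simulated data. Alternatives were other filters, scalings, floors, thinning depths and seeds.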

Additional observations from a re-analysis of the deposited data

Results flagged for a closer look

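Chaperones of the ER stood out in data that the comparisons left aside, the 601 TC71 barcodes with over 15% mitochondrial UMIs. Against the kept cells HSPA5 was 2.99-fold, HSP90B1 2.98-fold, HSPA13 2.48-fold, DNAJC1 2.47-fold, DNAJB11 2.33-fold and DNAJC10 2.22-fold higher in CPM. DNAJC16 was also 2-fold higher, at 28.7 beside 12.4 CPM. Mitochondrial UMIs took 36.4% of these barcodes, and their part in the ratios was not tested.

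In 5 of 52 members, beside 4.82% of all genes, the log2 ratio of G2M over G1 had opposite signs in the lines, with intervals that left out 0 in each. It was -0.43 in CHLA9 and 0.62 in TC71 for DNAJC16, 0.28 and -0.16 for HSPB11, -0.21 and 0.13 for HSPA4, 0.23 and -0.23 for DNAJC9, and -0.20 and 0.17 for HSP90B1. The signs held under both other ways of scoring phases. With the updated phase lists DNAJC16 was no longer called between phases in TC71. The lines have 1 library each, so the difference was not tested.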

How the results depend on the processing

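The count of members 2-fold higher in TC71 stayed between 9 and 13 over 8 alternatives, but all genes so called went from 8.8% to 13.9% with a floor of 1 CPM and 20.1% with a floor of 1 UMI. The count higher in CHLA9, 3, became 5 of 70 with a floor of 1 CPM, beside 19.8% of all genes. With a floor of 1 UMI it became 12 of 82, beside 31.1%. The summed level in CHLA9, 16192 CPM, became 16306 without outlier cells, 16319 at up to 10% mitochondrial UMIs, 16345 without the 8% of cells with the most UMIs, and 21447 over UMIs outside mitochondrial and ribosomal protein genes. In TC71, 21967 CPM became 22341, 22009 and 30908 under the last 3 of these, so TC71 stayed above CHLA9. With a floor of 50 CPM, 9 of 34 members differed between phases in CHLA9, beside 23.3% of all genes, and 3 of 36 in TC71, beside 19.7%. At up to 10% mitochondrial UMIs they numbered 14 in TC71, beside 28.4%. The median rho in CHLA9 was 0.0495 without thinning, and in TC71 it stayed between 0.0117 and 0.0461 over 10 alternatives. At 3 times the mean, 8 members of CHLA9 and 10 of TC71 had 1% high cells, and at 10 times the mean CHLA9 had 0. The share of all genes at these limits was not computed. The share of HSPA1A-high cells in TC71 was 0.120% at 10 times the mean and 0.240% with seed 2. That of HSPA5-high cells in CHLA9 ran from 1.04% to 1.37% over 4 alternatives chosen after seeing the data. The causes were not tested. No paired analysis was possible because a single library stands for each line and no test was run. Counting error falls with depth, but the spread between cultures is unknown at any depth, and a gene at 0 in CHLA9 may lie below 0.0171 CPM.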
